A study of Mus musculus with 12 samples.

Results

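Aminoacyl-tRNA synthetases are the enzymes that join each amino acid to its transfer RNA (tRNA), the step that supplies the ribosome with charged tRNA. The members described here are the rows of the deposited gene counts whose symbol has the form of a synthetase name, together with Farsa, Farsb, Eprs, Tarsl2, Aimp1 and Aimp2. This gave 40 genes of the 13780 listed, and all 40 passed the filter on low counts. By their names and known roles, 21 encode cytosolic enzymes, of which Gars (glycine) and Kars (lysine) also serve mitochondria, 17 encode mitochondrial enzymes with a symbol ending in 2, and 2 (Aimp1 and Aimp2) encode scaffold proteins.

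The study compared CD8+ T cells, the cytotoxic lymphocytes, from the spleens of young adult C57BL/6J mice before activation and after activation with or without lactate. Naïve cells were lysed directly after isolation, with no treatment. Activated cells had been kept for 72 h with beads against CD3 and CD28 and with 10 U/ml of interleukin-2. The beads engage the T cell receptor and the costimulatory receptor CD28. The culture was either without addition (the media group) or with sodium lactate added to 40 mM (the lactate group). Each group had 4 libraries of polyadenylated RNA, the cells of all groups came from unmodified animals by positive magnetic selection, and the control of the lactate group was plain media and not an equal dose of sodium chloride. Column names of the activated libraries carry an animal tag and a library number. The same tags recur in a low and a high run of library numbers, and they were read as different animals in each run. The study describes the mouse donors within each condition as independent. In each activated group a tag recurs across the runs, and reading it as the same animal would go against that description. That a tag shared by media and lactate libraries within a run names the same animal was assumed. Read so, activated cells came from 5 donors, of which 3 are found in the media and in the lactate group.

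Every nucleus-encoded synthetase is made in the cytosol, and the mitochondrial enzymes are imported to charge the tRNAs that the mitochondrial genome encodes. In the cytosol, several synthetases are held together by scaffold proteins in the multi-synthetase complex, while the others act free of it. A T cell that leaves rest grows and divides quickly, which calls for much protein synthesis. Uncharged tRNA is sensed by the kinase GCN2 (Eif2ak4), and the transcription factor ATF4, which is translated when GCN2 is active, binds a composite C/EBP-ATF element in genes of amino acid synthesis, transport and charging.

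Promoter sequences of RefSeq (GRCm38.p6, 250 bases before to 50 bases after the annotated start site) were found for 30 of the 40 members. The element TGATGNAA, searched on both strands (TTNCATCA on the other), was present in 5 of the 30, which is 16.7%, and in 4.51% of all 27025 genes with a promoter. These were Aars (alanine), Gars, Iars (isoleucine), Tars (threonine) and Yars (tyrosine), all cytosolic enzymes. They are shown because they carry the letters of the element that ATF4 is known to bind, with 30 bases each, on the strand of the gene and with the match in capitals:
Aars: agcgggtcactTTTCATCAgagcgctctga
Gars: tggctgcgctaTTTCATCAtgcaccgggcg
Iars: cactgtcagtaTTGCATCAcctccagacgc
Tars: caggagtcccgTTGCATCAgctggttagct
Yars: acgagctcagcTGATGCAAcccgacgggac

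The windows lie at chr8:111033840-111033869 (Aars, plus strand), chr6:55037960-55037989 (Gars, plus strand), chr13:49682126-49682155 (Iars, plus strand), chr15:11399655-11399684 (Tars, minus strand) and chr4:129189895-129189924 (Yars, plus strand). In GENCODE release M21 the windows of Aars, Iars and Yars are exonic, that of Gars lies outside the gene, and that of Tars has 11 of its 30 bases in an exon. Among the windows shown, the letters TTGCATCA occurred in Iars and Tars, and TTTCATCA in Aars and Gars. In Yars they were TGATGCAA, the reverse complement of TTGCATCA. The E-box CACGTG was found in 5 of the 30 promoters (Aars, Ears2, Farsb, Iars and Tars; 16.7%, against 8.09% of all genes). A match describes the letters in the window and not the binding of a factor.

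The libraries held 14726904 to 21478137 counts in genes, with ranges that overlapped between the 3 groups. The 6 CD8+ T cell markers examined summed to 1991 to 4036 CPM (a library's counts scaled to the same total) in every library, and the 4 lactate libraries (2303 to 2901 CPM) lay below the 4 media libraries (3095 to 3879 CPM). Of these markers Cd3e, Cd3d and Cd3g, subunits of the T cell receptor complex, were lower with lactate (log2 fold changes of -0.91, -0.74 and -0.80), and their part in the comparison of lactate with media was not tested. Markers of other spleen cells were present in the naïve libraries: the 4 B cell markers summed to 392 to 954 CPM, the 5 myeloid markers to 420 to 1395 CPM and the 3 red cell markers to 75.7 to 2939 CPM. In the 8 activated libraries the same sums were 5.23 to 14.7, 0.223 to 0.982 and 0 to 1.74 CPM. For B cells they were 8.14 to 14.7 CPM in media and 5.23 to 7.44 CPM in lactate cells. Sums of 4 cross-presenting dendritic cell markers were 53.7 to 140, 0.279 to 0.601 and 0.314 to 2.82 CPM in naïve, media and lactate cells. Among them Xcr1 had a count of 0 in all 8 activated libraries and Itgax had 3 to 53 counts. In the same order the 3 CD4+ T cell markers summed to 30.3 to 52.0, 3.77 to 6.33 and 7.23 to 9.41 CPM. The 3 natural killer cell markers summed to 5.06 to 13.6, 0.709 to 1.34 and 2.04 to 5.48 CPM. The part of these cells in the comparisons was not tested. CPM are shares of a library, so that more mRNA of a gene per cell and more cells that express it cannot be told apart, and a change in the total mRNA of a cell is not seen.

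Already in naïve cells the cytosolic enzymes had, by their median, more mRNA per length of gene than the mitochondrial ones. On the scale of TPM, in which each count is first divided by the length of its gene, the median level of the 21 cytosolic enzymes was 69.6 TPM in naïve, 110 TPM in media and 172 TPM in lactate cells. The median of the 17 mitochondrial enzymes was 19.6, 21.9 and 26.5 TPM in the same order. Vars (valine) had the highest cytosolic level in naïve and media cells, with 160 ± 12.8 and 402 ± 38.5 TPM (mean ± SD, n = 4), and Gars in lactate cells, with 622 ± 71.4 TPM. Tarsl2, a second cytosolic enzyme for threonine, was the lowest cytosolic member in all 3 groups, with 4.94 to 9.82 TPM.

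**Figure D1:**
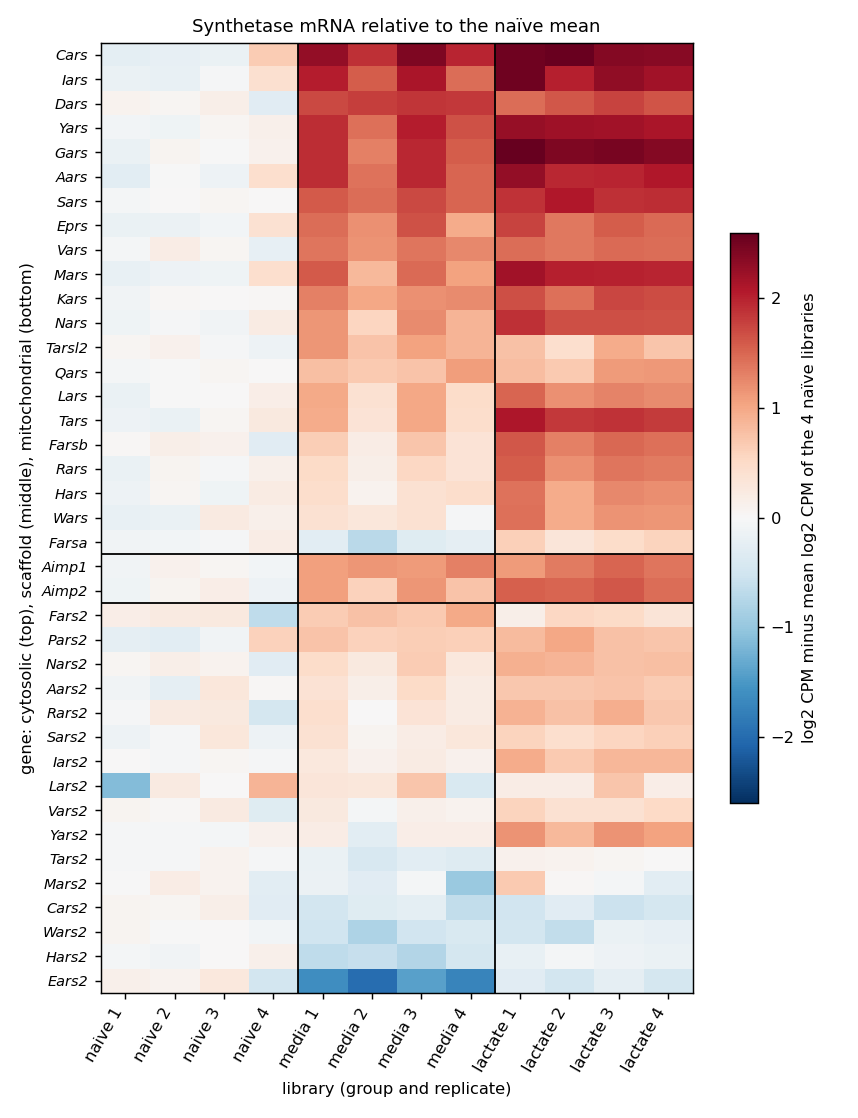
Heat map of 39 members (rows, by class, in order of the change from naïve to media) in the 12 libraries (columns). Colour gives log2 CPM minus the mean log2 CPM of the 4 naïve libraries, with red above and blue below that mean. Cytosolic rows are red in all lactate columns and in most media columns, Farsa is blue in media, and Ears2 is the darkest blue row in media.

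After activation in plain media, most cytosolic enzymes rose and few mitochondrial enzymes did. Of the 40 members, 22 were higher in media than in naïve cells at an adjusted p of at most 0.01 (edgeR, Benjamini-Hochberg over all tested genes), against a background of 28.5% of all genes, and 5 were lower, against 29%. Of the 21 cytosolic enzymes, 18 rose and 0 fell, and both scaffold genes rose. Of the 17 mitochondrial enzymes, 2 rose, 5 fell and 10 did not pass the threshold. Their count of falls is near the background of 29% and is not a result about them. The median log2 fold change was 1.19 for the cytosolic and 0.12 for the mitochondrial enzymes, beside -0.029 for every tested gene. Summed over the cytosolic enzymes, the naïve libraries had 1831 to 2159 CPM and the media libraries 3992 to 5231 CPM, so the groups did not overlap. Summed over the 17 mitochondrial enzymes, the naïve libraries had 685 to 1198 CPM and the media libraries 804 to 1180 CPM, which do overlap. Without Lars2, the most abundant of them and the one with a wide spread between naïve libraries, the sums were 466 to 549 and 479 to 536 CPM, which overlap as well.

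The largest increases after activation were those of the cytosolic enzymes for cysteine, isoleucine, aspartate and tyrosine. Cars, which charges the cysteine tRNA (chr7:143557230-143600090, GRCm38), had 30.7, 31.7, 32.5 and 58.1 CPM in the naïve libraries and 180, 136, 198 and 145 CPM in the media libraries. This was a log2 fold change of 2.11 ± 0.20 (standard error), or 4.31-fold, with an adjusted p of 1.63e-06. The naïve library with 58.1 CPM stood above the others but below every media library. Iars, a member of the multi-synthetase complex, had 73.2, 72.0, 80.8 and 110 CPM in naïve and 340, 246, 361 and 227 CPM in media cells, a rise of 1.81 ± 0.19 on the log2 scale (adjusted p of 3.05e-06). Dars, the aspartate enzyme of the complex, had 96.8, 94.7, 101 and 73.9 CPM in naïve and 297, 318, 331 and 324 CPM in media cells, a rise of 1.79 ± 0.11 (adjusted p of 3.37e-08). Its 4 media libraries lay closer together than those of Cars or Iars. Yars, free of the complex, had 41.5, 40.1, 45.0 and 48.0 CPM in naïve and 166, 117, 178 and 138 CPM in media cells, a rise of 1.78 ± 0.12 (adjusted p of 1.12e-07). For all 4 genes every media library was above every naïve library.

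Among the remaining cytosolic enzymes that passed the threshold, the log2 fold change ran down to 0.38 for Rars (arginine). Rars and Farsb were close to the threshold: the call of Rars was lost in 8 and that of Farsb in 9 of the 12 fits that each left out 1 library, with log2 fold changes of 0.30 to 0.46 and 0.39 to 0.57. The call of Tars was lost without naïve replicate 2 (adjusted p of 0.0123). The 3 cytosolic enzymes that did not pass were Farsa, Wars and Hars. Farsa, the catalytic subunit of the cytosolic phenylalanine enzyme, changed by -0.37 ± 0.12 on the log2 scale (adjusted p of 0.0134), with every media library below every naïve library, while Farsb, the other subunit, rose by 0.48 ± 0.13 (adjusted p of 0.00574). At an unadjusted p under 0.05, Farsa was the 1 cytosolic enzyme that was lower. It passed as lower in 11 of 25 alternative settings, which include a threshold of 0.05. Among them were DESeq2 (-0.43, adjusted p of 0.00196) and 3 of the 12 fits without 1 library, but not limma voom. Hars passed without naïve replicate 4 (adjusted p of 0.00806) and without media replicate 2 (adjusted p of 0.00673).

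The mitochondrial enzyme for glutamate, Ears2 (chr7:122037213-122067263), had the largest fall of any member. It had 18.7, 18.3, 20.6 and 12.2 CPM in the naïve libraries and 5.59, 4.37, 6.47 and 5.20 CPM in the media libraries. The log2 fold change was -1.69 ± 0.18, or 3.22-fold lower (adjusted p of 4.36e-06), and the groups did not overlap. Hars2 (histidine) had 48.5, 46.9, 50.8 and 54.8 CPM in naïve and 31.9, 33.1, 29.6 and 36.5 CPM in media cells, a log2 fold change of -0.62 ± 0.09 (adjusted p of 6.44e-05). Wars2 (tryptophan) had 17.8, 16.8, 17.1 and 16.0 CPM in naïve and 11.8, 9.77, 12.0 and 12.9 CPM in media cells, a log2 fold change of -0.54 ± 0.14 (adjusted p of 0.00352). All media libraries were below all naïve libraries for both genes. Cars2 (cysteine) had 45.9, 45.1, 48.6 and 35.6 CPM in naïve and 31.4, 35.0, 36.3 and 27.8 CPM in media cells, a log2 fold change of -0.42 ± 0.12 (adjusted p of 0.00766), and here the groups overlapped. Its call was lost in 6 of the 12 fits without 1 library, those of Wars2 and Tars2 (-0.30 ± 0.08) without media replicate 2, and the count of members that fell was 2 without that library. Against these stood the rise of Fars2 (phenylalanine) by 0.73 ± 0.19, which was not past the threshold without media replicate 4.

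With lactate, synthetase genes were higher again and none was lower by the same test. Of the 40 members, 18 were higher in lactate than in media cells, against a background of 13.9% of all genes, and 0 were lower, against 11.1%. At an unadjusted p under 0.05, edgeR gave 0 members lower, limma voom 1 (Fars2) and DESeq2 2 (Dars and Fars2), and none passed the threshold with any of these tools. The direction was positive for 36 members, with a median log2 fold change of 0.41, beside -0.0016 for every tested gene. Of the members, 24 had every lactate library above every media library and 1 (Fars2) had every one below, where the background was 23.2% and 21.5%. Of the cytosolic enzymes 12 of 21 rose, of the mitochondrial enzymes 5 of 17, and of the scaffold genes 1 of 2. The median log2 fold change was 0.45 for the cytosolic and 0.36 for the mitochondrial enzymes. The summed cytosolic level was 5992 to 6848 CPM in lactate cells, above all media libraries. The summed mitochondrial level was 1114 to 1335 CPM in lactate cells, which overlapped the media and the naïve libraries. Without Lars2 it was 664 to 724 CPM, above all media and all naïve libraries.

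**Figure D2:**
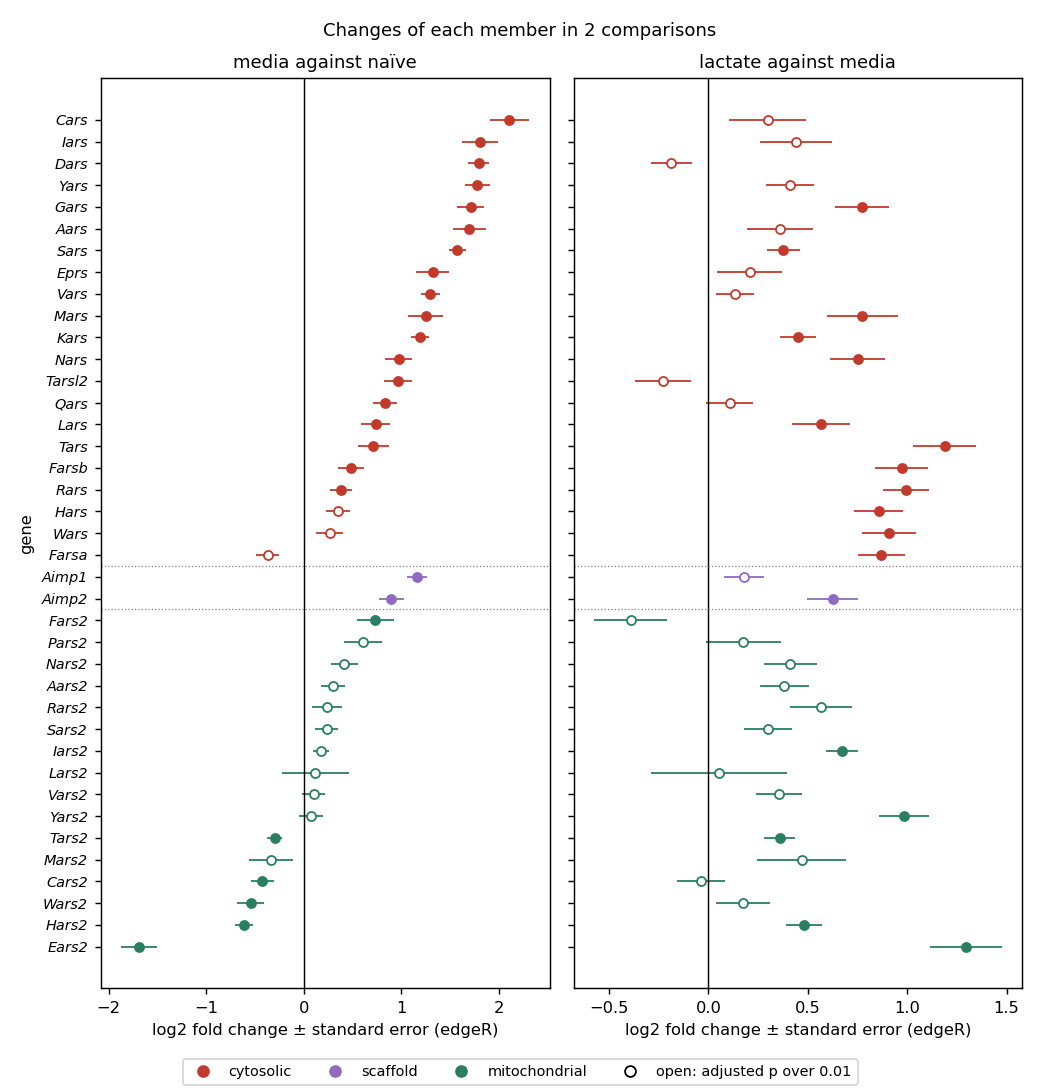
Log2 fold change ± standard error from edgeR for 39 members (rows), media against naïve at left and lactate against media at right. Filled points have an adjusted p of at most 0.01 (21 higher and 5 lower at left, 18 higher at right) and open points do not, and colour gives the class.

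The donor of the cells bears on this comparison, since by the reading of the tags given above 3 donors gave a library to each group. With the donor as a block and the naïve libraries as 1 level, 9 members were higher, against a background of 4.54%, and all 9 were among the 18. The 9 that were lost were Ears2, Tars2, Sars, Aimp2, Mars, Kars, Hars2, Lars and Nars, with log2 fold changes that stayed positive and adjusted p-values of 0.0101 for Nars to 0.0408 for Lars. With the donor block in the 8 activated libraries alone, a fit added after the data had been seen, 17 were higher, against 15%, of which 16 were among the 18. There Tars2 and Kars were lost and Rars2 was gained. No member was lower in either fit, against 2.67% and 12.9% of genes. Within the runs of library numbers the median log2 difference of the 40 members was 0.39 in the low run (3 media and 2 lactate libraries) and 0.51 in the high run (1 media and 2 lactate libraries). When 1 library was left out, the count was lowest at 13 (lactate replicate 3) and highest at 21 (naïve replicate 4), and 13 members passed whichever library was left out. Nars2, Rars2 and Vars2 also passed without naïve replicate 4, and Yars without media replicate 3.

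Ears2, which had fallen most on activation, had the largest increase with lactate. Beside the media values of 5.59, 4.37, 6.47 and 5.20 CPM, the lactate libraries had 13.9, 12.3, 14.5 and 12.5 CPM, a log2 fold change of 1.30 ± 0.18, or 2.46-fold (adjusted p of 0.000231). With the donor block over all libraries the adjusted p was 0.0114. Every lactate library was above all media libraries, and the lactate and naïve libraries overlapped (log2 fold change of -0.39 ± 0.18 against naïve, adjusted p of 0.0586). Without naïve replicate 4, the lowest naïve library, Ears2 was lower in lactate than in naïve cells (-0.54, adjusted p of 0.00385).

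Tars (chr15:11382301-11399665), the main cytosolic enzyme for threonine by level, had 64.6, 63.3, 73.8 and 84.5 CPM in naïve, 139, 90.5, 143 and 96.9 CPM in media and 304, 254, 263 and 249 CPM in lactate cells. It rose with lactate by 1.19 ± 0.16 on the log2 scale, or 2.28-fold (adjusted p of 0.000178). The 3 groups were fully separate. Tarsl2, the other cytosolic threonine enzyme (chr7:65644898-65692091), had 10.1, 10.5, 9.54 and 8.96 CPM in naïve, 21.7, 16.3, 20.2 and 18.1 CPM in media and 16.7, 13.2, 19.1 and 16.2 CPM in lactate cells. It rose on activation by 0.96 ± 0.14 (adjusted p of 6.30e-05), while its log2 fold change with lactate was -0.23 ± 0.14 (adjusted p of 0.22), with overlapping groups.

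Rars (chr11:35808381-35834506), the arginine enzyme of the complex, had 59.2, 70.8, 65.7 and 73.9 CPM in naïve, 94.2, 75.0, 97.4 and 85.5 CPM in media and 201, 152, 178 and 171 CPM in lactate cells. The rise with lactate was 0.99 ± 0.11, or 1.99-fold (adjusted p of 9.06e-05), against 0.38 on activation. Yars2, the mitochondrial tyrosine enzyme (chr16:16302965-16309640), had 17.6, 17.8, 17.5 and 19.4 CPM in naïve and 20.7, 14.8, 20.2 and 20.4 CPM in media cells, groups that overlapped. In lactate cells it had 40.6, 32.5, 40.5 and 37.2 CPM, a rise of 0.99 ± 0.13, or 1.98-fold over media (adjusted p of 0.000145). Each lactate library was above all 8 others.

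Both subunits of the cytosolic phenylalanine enzyme rose with lactate. Farsb (chr1:78417975-78488897) had 60.5, 65.1, 63.4 and 48.2 CPM in naïve, 92.2, 67.2, 96.7 and 75.7 CPM in media and 181, 147, 165 and 159 CPM in lactate cells, a rise with lactate of 0.97 ± 0.13 (adjusted p of 0.000202). Farsa (chr8:84856989-84869257) had 74.1, 75.2, 77.6 and 90.4 CPM in naïve, 65.5, 48.6, 63.9 and 67.4 CPM in media and 122, 98.3, 111 and 118 CPM in lactate cells, a rise of 0.87 ± 0.12 (adjusted p of 0.000192). The order of the groups for Farsa was media below naïve below lactate, with no overlap. Fars2, the mitochondrial enzyme for the same amino acid, had the lowest log2 fold change with lactate, -0.39 ± 0.18 (adjusted p of 0.112), and was below the media range in all 4 lactate libraries, with 16.8 to 21.9 CPM beside 24.0 to 29.7 CPM.

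Wars (chr12:108860030-108894174), the cytosolic tryptophan enzyme, is known as a gene induced by interferon-γ. It had 60.8, 61.6, 81.8 and 76.3 CPM in naïve and 91.9, 85.5, 91.4 and 68.3 CPM in media cells, which overlapped (log2 fold change of 0.27 ± 0.14, adjusted p of 0.103). In lactate cells it had 186, 135, 157 and 154 CPM, a rise over media of 0.91 ± 0.14, or 1.88-fold (adjusted p of 0.000359). Of 7 genes of the interferon-γ response, 1 was higher and 2 were lower with lactate: Ifng, the cytokine itself, by 4.09 ± 0.84, and the guanylate-binding proteins Gbp2 (-1.87 ± 0.33) and Gbp3 (-0.86 ± 0.16). Of all genes 13.9% were higher and 11.1% lower, so that 1 of 7 higher is near the background. The median log2 fold change of the 7 was -0.42. The part of interferon-γ in the rise of Wars was not tested. Hars, the cytosolic histidine enzyme, had 58.5, 66.4, 59.6 and 74.3 CPM in naïve, 88.9, 68.2, 84.2 and 88.8 CPM in media and 171, 125, 153 and 148 CPM in lactate cells, a rise of 0.86 ± 0.12 with lactate (adjusted p of 0.00027). Its naïve and media libraries overlapped, and all lactate libraries were above both.

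**Figure D3:**
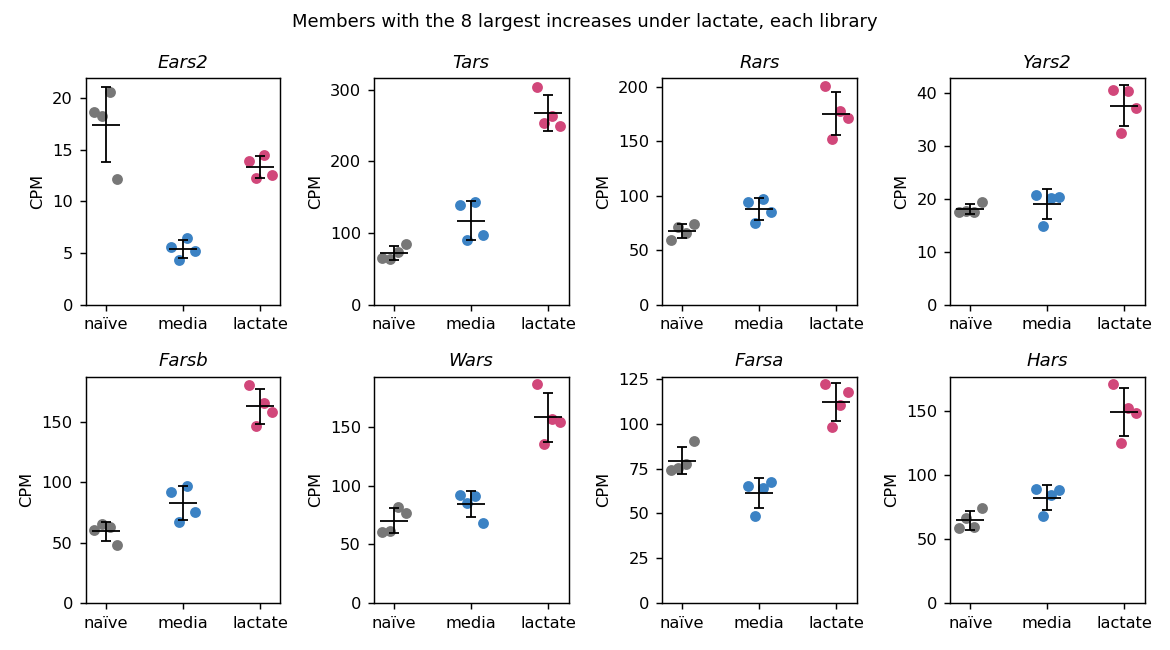
CPM of the 8 members with the largest increase from media to lactate, in each of the 4 libraries of the naïve, media and lactate groups. Points are libraries, and the bar and whiskers give the mean ± SD; each axis starts at 0. In every panel the 4 lactate points lie above the 4 media points, and Ears2 and Farsa are lower in media than in naïve cells.

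For each of these 8 genes the difference between lactate and media cells within the low run and that within the high run of library numbers were both positive, from 0.76 to 1.40 on the log2 scale (the latter Tars in the high run). The other 10 members that rose did so by 0.36 (Tars2) to 0.77 (Mars and Gars). Besides the members named, these were Kars, Lars, Nars, Sars, Iars2, Hars2 and Aimp2. The calls of Lars, Mars and Sars were lost in 9, 5 and 4 of the 12 fits that left out 1 library, that of Tars2 in 2 and that of Aimp2 without lactate replicate 3.

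On activation all 8 enzymes of the multi-synthetase complex and both scaffold genes rose, as did 10 of the 13 cytosolic enzymes outside it. With lactate, 4 of the 8 rose (Kars, Lars, Mars and Rars) and 8 of the 13 outside it, with median log2 fold changes of 0.45 and 0.75, and the difference between these groups was not tested. Aimp1, a scaffold protein of the complex, had 49.5, 57.3, 54.8 and 50.5 CPM in naïve, 111, 118, 114 and 132 CPM in media and 113, 135, 151 and 138 CPM in lactate cells. It rose on activation by 1.16 ± 0.10 (adjusted p of 7.32e-07), and with lactate its log2 fold change was 0.18 ± 0.10 (adjusted p of 0.171), with overlapping groups. Aimp2, another scaffold protein, had 18.7, 21.3, 22.8 and 18.3 CPM in naïve, 42.3, 30.7, 44.7 and 33.5 CPM in media and 58.9, 57.4, 61.9 and 55.5 CPM in lactate cells. It rose by 0.90 ± 0.13 on activation (adjusted p of 5.11e-05) and by 0.63 ± 0.13 with lactate (adjusted p of 0.00225; 0.0279 with the donor block over all libraries), and the 3 groups did not overlap. The third scaffold gene of the complex, Eef1e1, which is no member here, rose with lactate by 1.15 ± 0.17. On activation Eef1e1 did not pass the threshold (0.52 ± 0.17, edgeR adjusted p of 0.018).

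Read together, the steps gave several patterns, with the caution that both comparisons use the same media libraries. Higher in each step were 9 cytosolic enzymes (Farsb, Gars, Kars, Lars, Mars, Nars, Rars, Sars and Tars) and Aimp2. Of these, the call on activation was lost for Rars in 16 and for Farsb in 12 of 25 alternative settings. The call of Lars with lactate was lost in 15 of 27. Another 9 cytosolic enzymes rose on activation and did not pass with lactate (Aars, Cars, Dars, Eprs, Iars, Qars, Tarsl2, Vars and Yars), and for these the log2 fold change with lactate was -0.23 to 0.44, with adjusted p-values of 0.0165 to 0.512. Farsa, Hars and Wars, and the mitochondrial Iars2 and Yars2, passed with lactate and not on activation. Ears2, Hars2 and Tars2 fell on activation and were higher in lactate than in media cells. With the donor block over all libraries, these lactate calls were lost (edgeR, adjusted p of 0.0114, 0.0259 and 0.0343). So were those of Kars, Lars, Mars, Nars, Sars and Aimp2 among the genes higher in each step. Of the 5 genes with a C/EBP-ATF element, all rose on activation (0.71 to 1.81), and Gars and Tars passed with lactate while Aars (0.36), Iars (0.44) and Yars (0.41) did not. For the 9 other cytosolic members with a promoter sequence the change on activation was -0.37 to 1.79, and all of them but Farsa rose past the threshold. With lactate, Farsa, Farsb, Kars, Mars and Sars of these 9 passed. Whether the element has a part in these changes was not tested.

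Against naïve cells, the lactate cells had 32 members higher, against a background of 33% of all genes, and 1 lower, against 32%. All 21 cytosolic enzymes and both scaffold genes were higher, with log2 fold changes of 0.50 (Farsa) to 2.48 (Gars, 5.59-fold) among the enzymes. Of the mitochondrial enzymes 9 were higher, among them Yars2 with 1.06 ± 0.13. Cars2 was the member that was lower, with a log2 fold change of -0.46 ± 0.12 (adjusted p of 0.004). Its lactate libraries had 30.8, 35.3, 29.5 and 31.5 CPM, below all naïve libraries and within the media range, and the call was lost without naïve replicate 1 or without lactate replicate 1. Without naïve replicate 4, 2 members were lower. The calls of Farsa, Pars2, Sars2 and Vars2 as higher were lost in 4, 3, 3 and 5 of the 12 fits that left out 1 library.

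Lars2 and Mars2, both mitochondrial, were the 2 members that passed in no comparison. Lars2 (leucine; chr9:123366927-123462666) had 180, 462, 397 and 732 CPM in naïve, 490, 481, 654 and 300 CPM in media and 452, 450, 650 and 447 CPM in lactate cells. It was the most abundant mitochondrial enzyme mRNA per length in each group (137 ± 74.4 TPM in naïve cells), with a wide spread between the naïve libraries. Its log2 fold change from naïve to media was 0.12 ± 0.34, and within the low and the high run of library numbers the difference was 0.74 and -1.29. What sets this spread was not tested. Mars2 (methionine) had 29.5, 33.9, 31.8 and 24.4 CPM in naïve, 26.7, 24.3, 28.5 and 15.3 CPM in media and 47.6, 30.5, 28.8 and 24.4 CPM in lactate cells, with a log2 fold change of 0.47 ± 0.22 with lactate (adjusted p of 0.117), and of 0.62 with a term for the library run (adjusted p of 0.00656).

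For 15 amino acids the cytosolic and the mitochondrial enzyme could be set side by side as a ratio of TPM, which gave 17 pairs because the phenylalanine enzyme has 2 cytosolic subunits and threonine 2 cytosolic enzymes. The ratio was higher in media than in naïve cells for 15 of the 17 pairs, and 12 of these had no overlap between libraries. Cars to Cars2 moved most, from 0.931 in naïve to 5.52 in media and 7.02 in lactate cells (log2 ratio of -0.10 ± 0.63, 2.46 ± 0.25 and 2.81 ± 0.09). The pairs that went the other way were Farsa and Farsb to Fars2, with ratios of 6.63 and 8.56 in naïve and 2.98 and 6.97 in media cells. Naïve and media libraries overlapped for Farsb to Fars2 and did not for Farsa to Fars2. Both naïve ratios include naïve replicate 4, in which Fars2 was low (9.52 CPM, others 17.1 to 17.9). From media to lactate the ratio was higher for 11 pairs, and of the 10 pairs with no overlap 7 were higher. No share over other pairs of genes was worked out to set beside these counts. The ratios rest on the same member values as above, and Fars2 and Tars2 each enter 2 pairs. The ratio of Tars to Tars2 was 1.16, 2.30 and 4.16 in naïve, media and lactate cells, and that of Yars to Yars2 was 1.28, 4.16 and 2.81. Only Lars to Lars2 and Tarsl2 to Tars2 had more mRNA of the mitochondrial enzyme in all 3 groups.

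**Figure D4:**
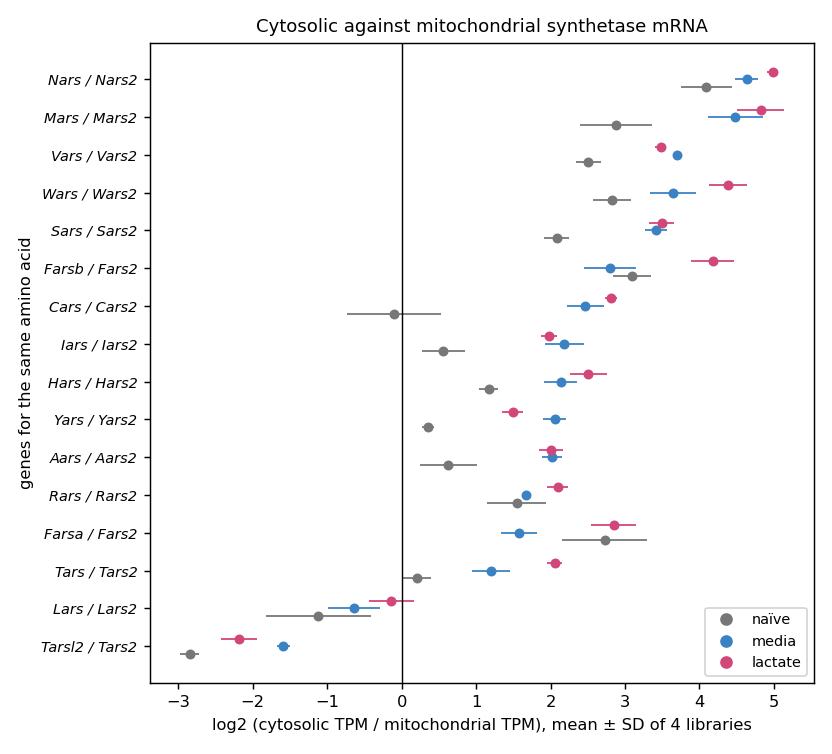
Log2 ratio of the TPM of the cytosolic to that of the mitochondrial enzyme for the same amino acid, in 16 pairs ordered by their value in media cells. Points and bars give mean ± SD of 4 libraries for naïve (grey), media (blue) and lactate (pink) cells, and the vertical line marks equal levels. Grey lies left of blue in 14 pairs, and Farsa and Farsb to Fars2 are the exceptions.

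Genes that act next to the synthetases were read from lists written with earlier results of these data known. The counts of these short lists stand beside 13.9% of all genes higher with lactate and 11.1% lower. Of 6 genes that deliver charged tRNA to the ribosome, 4 were higher with lactate and 0 lower (median log2 fold change of 0.43), led by the mitochondrial elongation factors Tsfm (1.35 ± 0.13) and Tufm (0.70 ± 0.10). Of 10 genes of tRNA maturation and export, 5 were higher and 0 lower (median of 0.47), led by Tsen54, a subunit of the tRNA splicing endonuclease (1.30 ± 0.14), and Elac2, which trims the 3′ end of tRNA (1.22 ± 0.14). Like Ears2, Tsen54 and Elac2 had been lower in media than in naïve cells (-0.87 ± 0.13 and -0.52 ± 0.14). Of 6 genes for selenocysteine charging 3 were higher with lactate, with Sephs2, which makes the selenium donor, at 0.90 ± 0.09. Of 4 genes for editing of mischarged tRNA 1 was higher, Aarsd1, by 1.45 ± 0.29 at a level of 0.618 ± 0.137 CPM in media cells. Of 4 genes that complete mitochondrial charging by modification 1 was higher, Gatb, a subunit of the glutamyl-tRNA amidotransferase (0.85 ± 0.18). Of 3 peptidyl-tRNA hydrolases 1 was higher, Ptrh2 (0.37 ± 0.10).

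Of 18 genes on the list of uncharged tRNA sensing and ATF4 targets, 12 were higher and 3 lower in media than in naïve cells, with a median log2 fold change of 1.18, beside 28.5% of all genes higher and 29% lower. Asns, the asparagine synthetase that makes the free amino acid, rose by 5.10 ± 0.31, Trib3 by 3.95 ± 0.34 and Psat1, of serine synthesis, by 3.57 ± 0.17, while Slc7a11, the cystine transporter, fell by 4.62 on the log2 scale from a naïve level that varied widely (7.10 ± 8.51 CPM). With lactate 4 of the 18 were higher and 0 lower, with a median of 0.57, beside 13.9% and 11.1% of all genes. These were Slc7a5, the transporter of large neutral amino acids (1.24 ± 0.25), Sesn2 (1.14 ± 0.23), Phgdh (0.88 ± 0.19) and Psat1 (0.85 ± 0.15). Among those that did not pass with lactate were Asns (0.54 ± 0.25), Trib3 (0.27 ± 0.29) and Atf4 itself (0.30 ± 0.13). Ddit3, which did not pass either, had a negative change (-0.72 ± 0.21, edgeR adjusted p of 0.0158).

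Reads of overlapping genes can enter some of these counts. Of the 40 members, 23 had no exon that overlaps another gene in GENCODE M21, and 5 had more than 10% of their exon bases in an overlap, among them Aimp2 with 29.4% (Eif2ak1, opposite strand), Iars2 with 24.2% (mostly Rab3gap2, opposite strand), Aars with 15.1% (mostly Exosc6, same strand) and Fars2 with 10.7%. Hars and Hars2 lie head to head and share 195 bases. The libraries were made with a stranded kit, and whether the counting used strand is not given in the sources used here.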

How the data were processed

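The data were RNA-seq libraries of mouse CD8+ T cells, 12 in all and 4 in each of 3 groups. By the methods of the study, the authors demultiplexed reads (bcl2fastq 2.20.0.422), aligned them to GRCm38 and removed PCR duplicates with STAR 2.7.5b, and counted uniquely mapped reads in Ensembl exons with featureCounts. The deposited values are raw counts per gene for 13780 genes, not normalized.

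Groups, donors and library numbers came from the labels. Genes with at least 1 CPM in 3 libraries were kept (13767). Counts were scaled by TMM and fitted in 1 quasi-likelihood model of 3 groups over all 12 libraries (edgeR 4.0.16, limma 3.58.1, R 4.3.3), and called at 0.01 after two-sided testing and Benjamini-Hochberg adjustment across the genes tested. To obtain standard errors, each log2 fold change was divided by the square root of F. The pooled biological coefficient of variation was 23.5%. CPM use TMM, and TPM the gene lengths of the table. The model was tested on simulated data.

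Members and lists were chosen with earlier results of these data known. Values in every library are given for the 8 members with the largest change called with lactate in each direction, the 4 called in each direction on activation, those called in no comparison, and Wars, Lars2, Tarsl2, Aimp1 and Aimp2, and of other lists at most 4 genes. Fars2 and the call changes of other members were named after their values were seen. Genes of other lists that did not pass were added in the same way. Some results on single members and promoter windows are not reported here, and the plots leave out 1 member. With tags read separately in each run of library numbers, 3 animals pair media with lactate libraries (correlations of deviations across genes of 0.374, 0.211 and 0.553). Alternatives were other tests (likelihood ratio, DESeq2 1.42.0, limma voom), scalings, filters, fits of 2 groups, blocks, a library run term, thinning, a threshold of 0.05 and leaving out each library. A library was called far from its group of 4 by Dixon's critical value of 0.829.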

Additional observations from a re-analysis of the deposited data

Results flagged for a closer look

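Each member was examined in each group of 4 libraries, and in 12 of the 120 groups so examined 1 library stood far from the other 3. For a single group of normally distributed values, chance alone gives about 1 in 20. The members share the same libraries and CPM were not put on a log scale, so the count cannot be read against that rate. In naïve replicate 4, Eprs (207 CPM, others 140 to 150), Cars (58.1 CPM, others 30.7 to 32.5), Mars (90.1 CPM, others 57.6 to 61.0), Pars2 (10.2 CPM, others 5.53 to 6.25) and Yars2 (19.4 CPM, others 17.5 to 17.8) were high and Fars2 (9.52 CPM, others 17.1 to 17.9) was low. This library is the only naïve one of the high run of library numbers, and it had the lowest sum of CD8+ T cell markers, 1991 CPM; the part of either in these values was not tested. Without it, Pars2 was higher in media than in naïve cells (0.85 on the log2 scale, adjusted p of 7.79e-05) where it otherwise missed the threshold (0.61, adjusted p of 0.0131).

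In naïve replicate 3, Tars2 was high with 76.3 CPM (others 70.6 to 71.1). In lactate replicate 1, Mars (302 CPM, others 261 to 267) and Nars (511 CPM, others 429 to 434) were high. In lactate replicate 2, Vars was low with 684 CPM (others 720 to 728), in lactate replicate 3 Lars2 was high with 650 CPM (others 447 to 452), and in media replicate 2 Yars2 was low with 14.8 CPM (others 20.2 to 20.7).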

How the results depend on the processing

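Of the counts of members, that of genes higher with lactate was 9 with the replicate block by donor beside 18, and 13 to 21 without 1 library. Over all alternatives it ran from 9 to 23, that of members higher in media than naïve from 19 to 26 (19 to 23 without 1 library), and that of members higher in lactate than naïve from 28 to 32. The count lower in lactate than naïve, 1, was 2 with DESeq2, with DESeq2's size factors and at a threshold of 0.05, and 0 to 2 without 1 library. The count lower in media than naïve, 5, was 3 in a fit of the 2 groups alone and 2 to 6 without 1 library. No member was lower with lactate under any alternative. The replicate block by title number gave 17, 32 and 21 members higher for lactate against media, lactate against naïve and media against naïve; title numbers do not follow the donors (correlations of 0.374, 0.297, 0.0038 and 0.553).

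Directions turned only for small differences. For lactate against media, Cars2 was 0.036 with the donor block, 0.030 with a library run term, 0.048 with the donor block in activated libraries alone and -0.11 to 0.016 without 1 library. Lars2 was -0.028, -0.052 and -0.016 under those 3 settings and -0.12 to 0.24 without 1 library, and Qars was -0.0086 with the donor block. Lars2 ran from -0.16 to 0.47 for media and from -0.10 to 0.52 for lactate against naïve without 1 library. So did Yars2 (-0.022 to 0.18) and Vars2 (-0.0024 to 0.15) for media, and Tars2 (-0.039 to 0.063) and Mars2 (-0.098 to 0.19) for lactate against naïve, where Tars2 was -0.033 with DESeq2 and with its size factors. The causes were not tested. With 4 libraries a group, changes of a small size can be missed, and a member that did not pass is not shown to be unchanged.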
